A study of Mus musculus with 12 samples.

Results

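The 10 regulators of fetal germ cell fate described here were read as rows of the count tables by their gene symbols, and all 10 were present among 35976 symbols. They are *Nanos2*, *Nanos3*, *Dnd1*, *Dazl*, *Cyp26b1*, *Stra8*, *Kit*, *Nodal*, *Lefty1* and *Lefty2*. RNA was measured in whole embryonic testes of outbred Swiss (RjOrl) mice at embryonic day E15.5, in 12 libraries that each pooled 3 embryos. In F1, 3 pools came from dams gavaged with 6 mg/kg/day of the neonicotinoid insecticide thiacloprid (*thia*) from E6.5 to E15.5 (F1 thia) and 3 from dams given the olive oil vehicle (F1 control). In F3, 3 pools descended through the male line from *thia*-exposed ancestors (F3 thia) and 3 from vehicle-treated ones (F3 control), with males of each generation crossed to untreated, unrelated females, so F3 embryos were not dosed themselves. The comparisons ask how *thia* affects the directly exposed generation and what is left of it in the unexposed one.

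In the fetal testis, germ cells leave the cell cycle and do not enter meiosis, while germ cells of the fetal ovary do enter it. Retinoic acid promotes meiotic entry by inducing *Stra8*, and in the testis the enzyme CYP26B1, made by somatic cells, degrades it. NANOS2 and NANOS3 are zinc finger proteins that bind RNA with the partner DND1 and recruit the CCR4-NOT complex, which shortens the poly(A) tails of target mRNAs. NANOS2 acts in male germ cells and holds back *Stra8*, NANOS3 keeps migrating primordial germ cells alive, and DAZL is an RNA-binding protein that germ cells need to start their sexual programme. KIT is a receptor tyrosine kinase of germ cells. NODAL is a TGF-beta family ligand active for a short time in male germ cells, and LEFTY1 and LEFTY2 are its secreted inhibitors.

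Upstream sequences are shown for the 3 RNA-binding regulators whose F1 control and F1 thia libraries did not overlap, and for *Stra8* around the motif half-site that retinoic acid receptors bind. They were taken from the RefSeq promoter table (GRCm38.p6, which mm10 is), which held 7 of the 10 genes and no entry for *Dnd1*, *Lefty1* or *Lefty2*. Of each window of 250 bases before the RefSeq start, only bases outside annotated exons of the gene are printed. *Nanos2* lies on the plus strand of chromosome 7 at 18987400-18988962 as a gene of 1 exon, and the 126 bases shown are chr7:18987274-18987399. The *Nanos3* window, chr8:84176553-84176802 on the minus strand, is upstream of the shorter transcript and inside the intron of the longer one. For *Dazl*, 234 bases are shown, chr17:50293637-50293870 on the minus strand. All sequences run 5′ to 3′ on the strand of the gene, and capitals mark CG dinucleotides, the sites of DNA methylation.
Nanos2: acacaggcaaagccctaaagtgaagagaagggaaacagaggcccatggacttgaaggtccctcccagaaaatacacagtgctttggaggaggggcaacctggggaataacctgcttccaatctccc
Nanos3: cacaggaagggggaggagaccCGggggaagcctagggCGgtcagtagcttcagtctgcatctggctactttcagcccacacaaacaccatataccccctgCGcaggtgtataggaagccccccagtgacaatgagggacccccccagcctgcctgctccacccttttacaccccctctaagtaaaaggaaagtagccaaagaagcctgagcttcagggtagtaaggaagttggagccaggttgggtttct
Dazl: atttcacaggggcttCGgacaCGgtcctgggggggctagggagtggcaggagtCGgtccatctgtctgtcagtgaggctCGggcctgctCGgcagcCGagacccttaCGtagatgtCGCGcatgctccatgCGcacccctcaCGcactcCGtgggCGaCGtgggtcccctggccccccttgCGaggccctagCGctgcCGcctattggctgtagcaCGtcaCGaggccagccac
The full window held 0 CG dinucleotides in *Nanos2*, 3 in *Nanos3* and 20 in *Dazl*. Of 32851 mouse promoter windows of the same length, 7.87% held none, and the median was 6. These 3 genes therefore spanned CG-free to CG-rich upstream sequence, while the windows of *Nodal*, *Stra8* and *Cyp26b1* held 3, 5 and 7 CG, and the 2 entries of *Kit* held 17 and 18.

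The hexamer AGGTCA, searched on both strands, occurred 2 times in the *Stra8* window and 0 times in the windows of the other 6 genes. At least 1 copy was present in 14.0% of all promoter windows, and 2 or more in 1.34%. The whole *Stra8* window is exonic in an annotated longer transcript, so only 26 bases around each copy are shown, chr6:34920744-34920769 and chr6:34920900-34920925 on the plus strand, with the hexamer in capitals.
Stra8 first copy: tggggtgaaaAGGTCAtcttgctcct
Stra8 second copy: ctggggtaccAGGTCAgttttttacc
A match of letters is a description of the sequence and not a measurement of binding.

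The total count was 25081647 to 68996146 per library, so a level of 1 CPM (a count scaled to library size by TMM over all 12 libraries) stood for 27.4 to 66.1 counts. Counting error was thus small for *Dnd1* or *Dazl* and large for *Nodal*, which had 9 to 21 counts in the F3 libraries, and for *Nanos2*, which had 4 to 63 there. All 10 genes passed the filter on low counts in every comparison. The tissue label was checked with marker genes. The summed level of 15 germ cell markers was 1701 to 2487 CPM in F1 control, 1909 to 1937 in F1 thia, 1057 to 1689 in F3 control and 766 to 1588 in F3 thia, and none of the 15 was at 0. Some libraries stood apart. F3 thia replicate 2 had the lowest germ cell level (766 CPM) and the highest summed level of blood genes (76655 CPM, against 38548 to 58306 in the other F3 libraries), and F1 thia replicate 2 had 622 CPM of skeletal muscle genes against 46.5 to 114 in the other F1 libraries. F3 thia replicate 3 had 124 CPM of adrenal genes against 40.3 to 63.2 in the other F3 libraries, and the highest sum of Leydig cell markers (8909 CPM). Blood genes were also higher in all F3 libraries than in F1, where they summed to 4635 to 16942 CPM. In whole testes, fewer germ cells and less RNA per germ cell cannot be told apart.

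Within one library, levels of different genes were compared per kilobase of transcript. In F1 control the order was *Dnd1* (105 CPM per kb), *Dazl* (45.6), *Cyp26b1* (18.3), *Lefty2* (15.1), *Kit* (10.5), *Nanos3* (7.53), *Nanos2* (3.75), *Lefty1* (2.09), *Stra8* (1.27) and *Nodal* (0.865). The libraries of neighbours in this order did not overlap, except for *Kit* and *Nanos3*, *Lefty1* and *Stra8*, and *Stra8* and *Nodal*. *Dnd1* came first, *Dazl* second and *Nodal* last in all 4 groups. *Nanos2* moved from the 7th place in F1 control to the 8th in F1 thia and the 9th in both F3 groups. In F3 thia its libraries did not overlap those of the next higher gene, *Lefty1*, but did overlap those of *Nodal*.

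**Figure D1:**
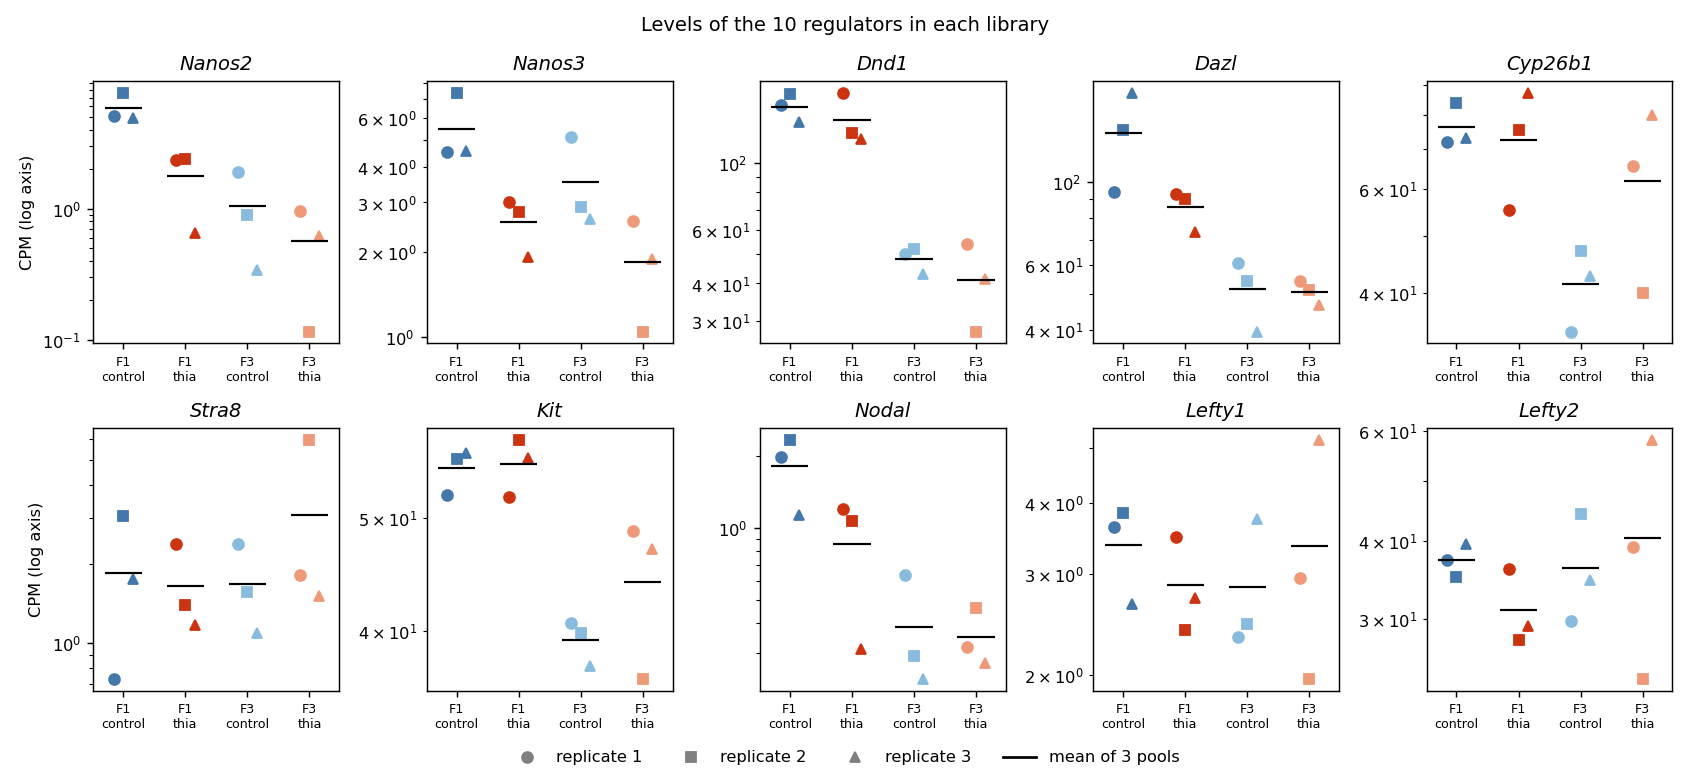
Level of each of the 10 genes in the 12 libraries, in CPM on a log axis, with 1 panel per gene, the 4 groups along the x axis, the marker shape giving the replicate and a line at the mean of 3 pools. *Nanos2*, *Nanos3* and *Dazl* have all F1 thia pools under all F1 control pools, and *Dnd1* separates F1 from F3 rather than control from *thia*.

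Between F1 control and F1 thia, the largest differences among the 10 genes were in *Nanos2*, *Nanos3* and *Nodal*, all lower in F1 thia, followed by *Dazl*. None passed the FDR of 0.15 used for F1. *Nanos2*, the male germ cell member of the family, was at 5.06, 7.60 and 4.92 CPM in the 3 F1 control pools and at 2.33, 2.37 and 0.65 CPM in the 3 F1 thia pools. Every F1 thia pool lay under every F1 control pool, with the third pool lowest. The log2 fold change was -1.72 ± 0.40 (SE, n = 3 per group), a level 3.28 times lower, with an unadjusted p of 0.00151 and an adjusted p of 0.446 by edgeR's quasi-likelihood test.

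*Nanos3*, needed for the survival of primordial germ cells, was at 4.53, 7.36 and 4.59 CPM in F1 control and at 3.00, 2.77 and 1.92 CPM in F1 thia. Again the groups did not overlap, and the log2 fold change was -1.09 ± 0.25 (SE, edgeR, adjusted p = 0.412). *Dazl* was at 94.0, 138.8 and 174.3 CPM in F1 control and at 93.2, 90.2 and 73.3 CPM in F1 thia. The groups were separated by under 1 CPM, since the lowest control pool reached 94.0 and the highest *thia* pool 93.2. Its log2 fold change was -0.65 ± 0.20 (SE, edgeR, adjusted p = 0.503). *Dnd1*, the partner of the NANOS proteins, was at 154.7, 168.4 and 135.8 CPM in F1 control and at 169.6, 125.3 and 120.0 CPM in F1 thia. Its groups overlapped, and the log2 fold change was -0.13 ± 0.14 (SE).

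*Nodal* was at 1.98, 2.32 and 1.13 CPM in F1 control and at 1.19, 1.07 and 0.31 CPM in F1 thia, from 20 to 138 counts. Only the highest *thia* pool exceeded the lowest control pool, and the log2 fold change was -1.09 ± 0.44 (SE, edgeR, unadjusted p = 0.0322, adjusted p = 0.553). Its inhibitor *Lefty2* ranged from 35.0 to 39.5 CPM in F1 control and from 27.8 to 36.1 in F1 thia, a log2 fold change of -0.25 ± 0.12 (SE). *Lefty1* ranged from 2.66 to 3.84 and from 2.39 to 3.49 CPM, with overlapping groups. The transcripts of *Lefty1* and *Lefty2* share 73 stretches of 100 bases, the read length, which are 4.80% and 3.07% of all such stretches in each, so a small part of their reads could not be told apart.

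The genes that set and read retinoic acid had little difference in F1. *Cyp26b1* was at 72.0, 83.9 and 73.2 CPM in F1 control and at 55.2, 75.4 and 87.2 CPM in F1 thia, and *Stra8* was at 0.73, 3.07 and 1.75 CPM and at 2.39, 1.40 and 1.17 CPM. Both genes overlapped between the groups, with log2 fold changes of -0.06 ± 0.14 and -0.15 ± 0.45 (SE). *Kit* had the smallest difference of the 10 genes in F1, at 52.3 to 56.8 CPM in F1 control and 52.1 to 58.2 in F1 thia, with a log2 fold change of 0.02 ± 0.09 (SE).

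In counts, 0 of the 10 genes passed the FDR of 0.15 in F1 with edgeR, against 0.0105% of the 19137 genes tested. At an unadjusted p under 0.05 there were 4 of 10, all lower, against 8.76% of all genes and 4.13% lower. The groups did not overlap for 3 of 10, all lower, against 15.1% of all genes. A log2 fold change under 0 was found for 9 of the 10, against 48.0% of all genes, and the median log2 fold change of the 10 was -0.24 against 0.0094 over all genes. Calls depended on the test. The Wald test of DESeq2 called *Nanos3* (adjusted p = 0.00498) and *Dazl* (0.0629) but not *Nanos2* (0.218), and edgeR without the filter on low counts called all 3, with adjusted p of 0.00588 for *Nanos2*, 0.0297 for *Nanos3* and 0.0481 for *Dazl*. DESeq2 called 1.01% of the genes it tested in F1 and edgeR without the filter 0.78%. Without F1 thia replicate 2, the pool with skeletal muscle RNA, the log2 fold changes were -1.97 for *Nanos2*, -1.15 for *Nanos3* and -0.69 for *Dazl*.

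Other germ cell genes were lower in some F1 thia pools as well, with 10 of the 15 germ cell markers under 0 in log2 fold change and 7 of them at an unadjusted p under 0.05. Each regulator was therefore also expressed relative to the mean log2 CPM of the 15 markers, which none of the 10 belongs to and which was 6.54 ± 0.25 (SD, n = 3) in F1 control and 6.26 ± 0.06 in F1 thia. On that scale *Nanos2* was at -3.94, -3.85 and -4.22 in F1 control and at -5.06, -5.01 and -6.71 in F1 thia, a difference of -1.59. The difference was -0.80 for *Nanos3* and -0.35 for *Dazl*, again with no overlap between groups, and 0.12 for *Dnd1* with overlap. Each of the 3 non-overlapping genes had an exact two-sided permutation p of 0.1, the smallest that 3 pools against 3 can give, and 16.8% of all genes did not overlap on that scale. The value of *Dazl* was -0.15 without F1 control replicate 3.

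**Figure D2:**
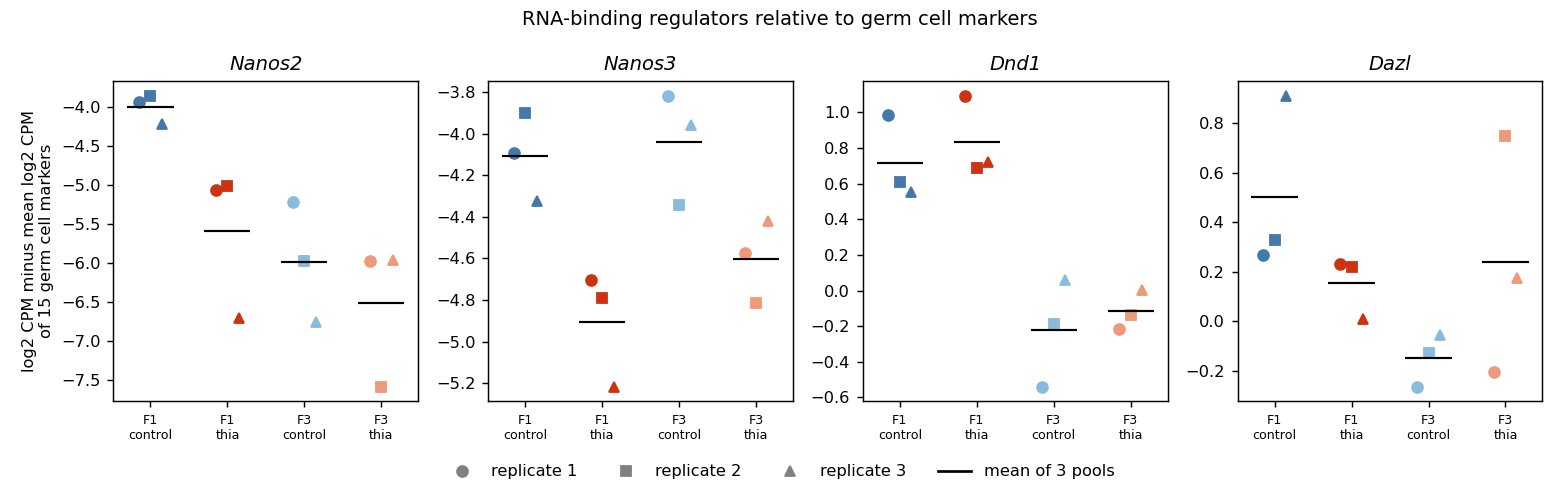
Level of 4 RNA-binding regulators relative to germ cell markers in the 12 libraries, as log2 CPM minus the mean log2 CPM of 15 markers, with the groups along the x axis, the marker shape giving the replicate and a line at the mean of 3 pools. F1 thia lies under F1 control by 1.59 for *Nanos2* and 0.80 for *Nanos3*, while the 2 F1 groups overlap for *Dnd1*.

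In F3, *Nanos3* was the one gene of the 10 whose groups did not overlap. It was at 5.12, 2.88 and 2.61 CPM in F3 control and at 2.59, 1.04 and 1.89 CPM in F3 thia. The gap was narrow, 2.61 against 2.59 CPM, and the log2 fold change was -0.97 ± 0.39 (SE, edgeR, unadjusted p = 0.0401, adjusted p = 0.215). Of the 15 germ cell markers, 14 had a log2 fold change under 0 in F3, 5 of them at an unadjusted p under 0.05 (edgeR). Their mean log2 CPM was 5.81 ± 0.41 (SD, n = 3) in F3 control and 5.42 ± 0.52 in F3 thia. Relative to these markers the difference of *Nanos3* was -0.56, without overlap (exact two-sided permutation p = 0.1, the smallest possible). On that scale *Cyp26b1*, at 0.92, was the other gene of the 10 without overlap, and 7.3% of all genes had none. Since CYP26B1 is made by somatic cells, this is not a level per germ cell. The lower marker mean in F3 thia raises the value, and in CPM the *Cyp26b1* groups overlapped. DESeq2 called *Nanos3* at the FDR of 0.1 used for F3, with an adjusted p of 0.0807. Without F3 thia replicate 2 its log2 fold change was -0.70, and that of *Nanos2*, described next, was -0.45.

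*Nanos2* was at 1.91, 0.90 and 0.34 CPM in F3 control and at 0.95, 0.12 and 0.62 CPM in F3 thia. The control pools alone spanned more than the difference between the means, and the log2 fold change was -0.88 ± 0.75 (SE, edgeR, adjusted p = 0.539). It was -0.14 without F3 control replicate 1. *Dazl*, at 60.5, 54.3 and 39.6 CPM in F3 control and 54.3, 51.3 and 46.6 CPM in F3 thia, had a log2 fold change of -0.06 ± 0.15 (SE). *Dnd1* was at 50.0, 52.1 and 42.9 CPM and at 53.9, 27.8 and 41.3 CPM, with the low value in F3 thia replicate 2. Its log2 fold change was -0.27 ± 0.22 (SE) with that pool and -0.06 without it.

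*Cyp26b1* was higher in 2 of the 3 F3 thia pools. It was at 34.4, 47.1 and 42.8 CPM in F3 control and at 65.7, 40.1 and 80.0 CPM in F3 thia, where replicate 2 stayed within the control range. The log2 fold change was 0.54 ± 0.24 (SE, edgeR, adjusted p = 0.254), and without F3 thia replicate 2 it was 0.78 with an adjusted p of 0.0683, which passed the FDR of 0.1, as did 6.82% of all genes. Some markers of somatic cells were also higher in F3 thia. The summed Sertoli cell markers were 1289 to 1721 CPM in F3 control and 2117, 1251 and 2221 CPM in the 3 F3 thia pools. Of the 12 Sertoli cell markers, 7 had a log2 fold change over 0 and 5 under 0. All 8 Leydig cell markers were over 0, with sums of 2666 to 4341 CPM in F3 control and 6517, 4947 and 8909 in F3 thia. In F3 thia replicate 2 the Leydig cell sum lay above the F3 control range, the Sertoli cell sum under it, and *Cyp26b1* within its own control range. The part of these markers in the *Cyp26b1* difference was not tested.

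*Stra8* was at 2.39, 1.56 and 1.10 CPM in F3 control and at 1.82, 5.96 and 1.51 CPM in F3 thia. The value of 5.96 CPM, from 206 counts, was the highest of all 12 libraries and came from the same replicate 2 that had the lowest germ cell marker level and the lowest *Nanos2* level (0.12 CPM, 4 counts). The log2 fold change was 0.83 ± 0.57 (SE, edgeR, adjusted p = 0.445), and without that pool it was -0.05. Fetal ovary markers summed to 242 to 311 CPM in F3 thia and 253 to 276 in F3 control, and 0 of the 14 tested genes of the meiotic entry list differed in F3 at an unadjusted p under 0.05.

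The Nodal genes and *Kit* overlapped between the F3 groups. *Nodal* was at 0.64, 0.29 and 0.23 CPM in F3 control and at 0.32, 0.46 and 0.27 CPM in F3 thia, from 9 to 21 counts per library, a log2 fold change of -0.19 ± 0.45 (SE). *Lefty1* ranged from 2.33 to 3.76 CPM in F3 control and 1.97 to 5.16 in F3 thia, and *Lefty2* from 29.8 to 44.2 and from 24.1 to 58.1. Replicate 2 was lowest and replicate 3 highest in F3 thia for both inhibitors. Their log2 fold changes were 0.21 for *Lefty1* and 0.13 for *Lefty2*, and -0.25 and -0.23 without F3 thia replicate 3. *Kit* ranged from 37.3 to 40.7 CPM and from 36.4 to 48.7, with a log2 fold change of 0.13 ± 0.12 (SE).

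In F3, 0 of the 10 genes passed the FDR of 0.1 with edgeR, against 0% of the 18539 genes tested. One of 10 had an unadjusted p under 0.05 against 21.1% of all genes, and the groups did not overlap for 1 of 10 against 27.3%. The median log2 fold change of the 10 was 0.03 and 5 lay on either side of 0, where 49.4% of all genes were under 0. DESeq2 called 1 of the 10, *Nanos3*, against 14.9% of the genes it tested.

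**Figure D3:**
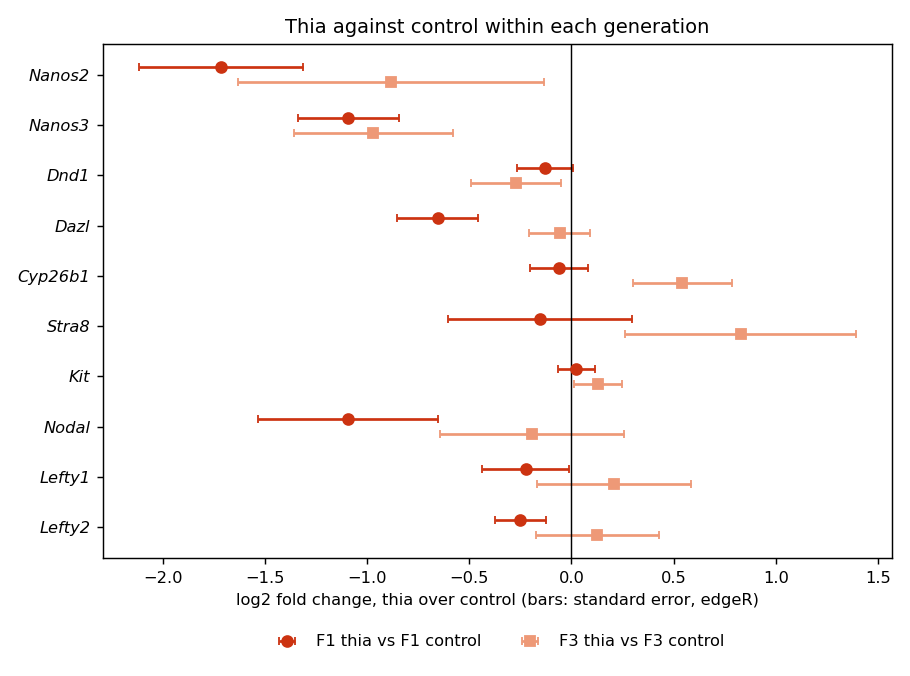
Log2 fold change of *thia* over control for the 10 genes, circles for F1 and squares for F3, with bars of 1 standard error from edgeR. *Nanos2* and *Nanos3* lie under 0 in both generations, *Dazl* at -0.65 in F1 and -0.06 in F3, and *Cyp26b1* at -0.06 in F1 and 0.54 in F3.

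The difference between the F3 and F1 effects was tested directly in 1 fit of the 12 libraries. With edgeR, 0 of the 10 genes passed the FDR of 0.1, against 0.0051% of 19626 genes, and 0 of 10 had an unadjusted p under 0.05, against 14.0%. DESeq2 also called 0 of the 10, against 4.74% of the genes it tested. The smallest p values were those of *Dazl*, with a difference of 0.61 ± 0.29 (SE, edgeR, unadjusted p = 0.057, adjusted p = 0.367), and *Cyp26b1*, with 0.62 ± 0.31 (unadjusted p = 0.0632, adjusted p = 0.376). For *Nanos3* the difference was 0.14 ± 0.49 (SE), an interval too wide to call the effects alike. Of the 10 differences 9 were above 0, with *Dnd1* the exception at -0.13, while 47.8% of all genes had a difference under 0. The F1 effects, of which 9 were under 0, enter these differences with the sign turned, so the 2 counts are not independent.

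Between the control groups of the 2 generations 6 genes differed, each by more than it did between control and *thia*. *Dnd1* fell from 153 ± 16.4 CPM (SD, n = 3) in F1 control to 48.3 ± 4.81 CPM in F3 control, a log2 fold change of -1.62 ± 0.21 (SE, edgeR, adjusted p = 0.000256). *Dazl* fell from 136 ± 40.2 to 51.5 ± 10.7 CPM (log2 fold change -1.36, edgeR, adjusted p = 0.000702). *Nanos2* fell from 5.86 ± 1.51 to 1.05 ± 0.79 CPM, with a log2 fold change of -2.45 that was -3.20 without F3 control replicate 1. *Nodal* fell by 2.21, *Cyp26b1* by 0.84 and *Kit* by 0.45 on the log2 scale.

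These 6 of the 10 genes passed the FDR of 0.1, all lower in F3 control, against 42.3% of all genes and 22.4% lower. The other 4 did not pass, namely *Nanos3* (adjusted p = 0.196 with edgeR), *Stra8*, *Lefty1* and *Lefty2*. *Nanos3* passed when F3 control replicate 1 was left out (log2 fold change -0.96, adjusted p = 0.0722). The germ cell markers moved the same way, with 14 of 15 under 0 and 7 past the FDR. So did most markers of testis somatic cells. Under 0 were 9 of 12 Sertoli cell markers (8 past the FDR in either direction), 6 of 7 endothelial (6 past) and 6 of 7 interstitial markers (5 past). The median log2 fold change was -0.50 for germ cell, -0.83 for Sertoli cell and -0.94 for endothelial markers. The other way went the blood genes, with 7 of 7 above 0, skeletal muscle genes (8 of 10) and fetal ovary markers (5 of 7). The 2 generations were separate sets of animals, so generation and any difference in collection or sequencing cannot be told apart.

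Across the 12 libraries *Nanos2* and *Nanos3* were correlated. Pearson's r of their log2 CPM was 0.894 (Spearman's rho 0.832), and r was 0.925 after the mean of each group was removed, so the pools of one group also varied together. Other genes were as close or closer, since *Nanos3* ranked 160th among all genes by r with *Nanos2*, and *Nanos2* had a rho of 0.909 with *Dazl* and 0.860 with *Dnd1*. Their common lowest library was F3 thia replicate 2 and their common highest was F1 control replicate 2. *Lefty1* and *Lefty2* had r = 0.708 and 0.720 after removal of the group means, for a pair with 73 shared stretches of sequence. *Cyp26b1* and *Stra8* had r = -0.380. These values describe 12 libraries that share depth, tissue makeup and group, and carry no test.

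**Figure D4:**
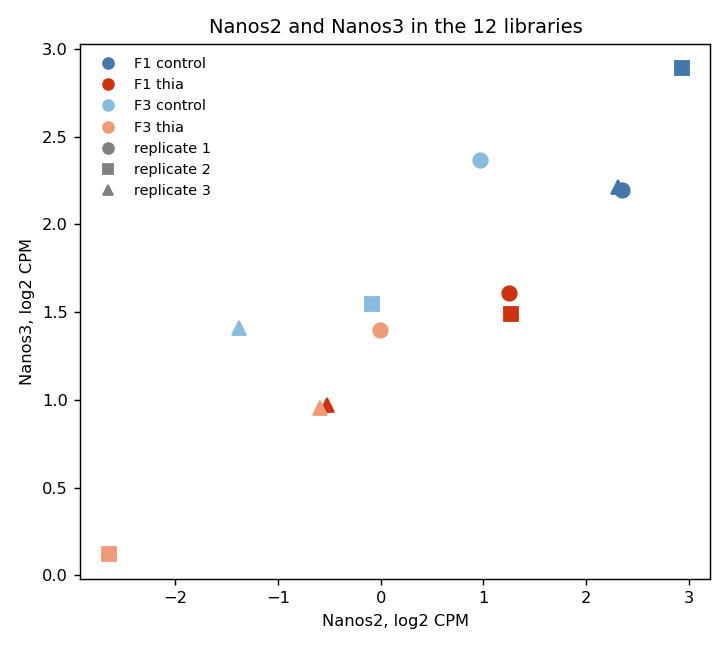
*Nanos3* against *Nanos2* in the 12 libraries, both as log2 CPM, with colours for the 4 groups and marker shapes for the replicates. The points rise together (r = 0.894), from F3 thia replicate 2 at the lower left to F1 control replicate 2 at the upper right.

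Genes with the most similar profiles were listed by Pearson's r over the 12 libraries. For *Nanos2* they were *Slc9b1* (0.98) and *Tmem232* (0.97), and for *Nanos3* *Prss29* (0.97) and *Dppa5a* (0.97), the latter one of the 15 germ cell markers. *Dnd1* was most like *Gm973* and *Tex13* (both 0.98), *Dazl* like *Crebrf* and *Nup155* (both 0.98), *Kit* like *Itga6* (0.98) and *Nuak2* (0.97), and *Cyp26b1* like *Nppc* (0.98) and *Fam214a* (0.97). *Nodal* was closest to *Epn2* and *Tub* (both 0.94), *Lefty1* to *Coq10a* (0.90) and *Mgarp* (0.85), and *Lefty2* to *Layn* (0.87) and *Gm4532* (0.86). *Stra8* had the least close neighbours, *Gm35953* (0.86) and *Irf4* (0.80).

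Beyond the 10 genes, other members of their pathways were read from lists, in which no gene passed the FDR in F1 or F3 in the edgeR test of each generation on filtered counts. Calls under other fits are given with each list. Among 12 other RNA-binding regulators of germ cells, 5 were lower in F1 thia at an unadjusted p under 0.05 and 0 higher, against 4.13% lower over all genes, and the median log2 fold change of the list was -0.23. Of the 15 germ cell markers 7 were lower at that threshold in F1, with a median of -0.17, so the lower levels were not particular to this list. *Lin28a*, which blocks maturation of the let-7 miRNAs, was at 38.6 to 53.8 CPM in F1 control and 26.2 to 28.7 in F1 thia, a log2 fold change of -0.69 ± 0.12 (SE, edgeR, adjusted p = 0.201). *Elavl2* (-0.53) and *Cpeb1* (-0.62), a cytoplasmic polyadenylation factor, were also lower without overlap. Both DESeq2 and edgeR without the filter called these 3, when they called 1.01% and 0.78% of the genes tested in F1. In F3 the list had 1 gene lower at an unadjusted p under 0.05, *Tial1* (-0.19), against 21.1% of all genes, and a median of 0.05.

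The CCR4-NOT deadenylase, which NANOS proteins recruit, was read from 13 genes. Of these, 0 had an unadjusted p under 0.05 in F1 against 8.76% of all genes, and *Cnot6* (-0.27), *Cnot4* (-0.26) and *Cnot9* (-0.15) had the smallest. In F3, 2 were higher and 2 lower at that threshold, against 21.1% of all genes, including *Tob2* (0.29), *Cnot10* (-0.29) and *Cnot7* (-0.18). DESeq2 called *Tob1* and *Tob2* there, when it called 14.9% of the genes it tested, and the edgeR fit of all 12 libraries called *Tob1*, *Tob2* and *Cnot10*, when it called 9.86%. *Cnot7*, a catalytic subunit, was tightly grouped, at 81.1 to 81.5 CPM in F3 control and 73.3 to 74.1 in F3 thia.

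Retinoic acid genes other than *Cyp26b1* were measured for 18 symbols, of which 16 were tested. In F1, 3 were higher at an unadjusted p under 0.05 and 0 lower, against 8.76% of all genes in either direction, including *Stra6* (0.38), the retinol uptake receptor, and *Crabp1* (0.35), which binds retinoic acid in the cytoplasm. In F3, 2 were higher and 4 lower, against 21.1% of all genes. *Aldh1a2*, which makes retinoic acid, was at 204 to 241 CPM in F3 control and at 151 to 186 in F3 thia, a log2 fold change of -0.47 ± 0.10 (SE, edgeR, adjusted p = 0.105). *Stra6* was at 14.7 to 17.3 and at 20.9 to 34.5 CPM (log2 fold change 0.70), and the receptor gene *Rara* at 32.0 to 37.3 and at 42.2 to 58.6 CPM (0.46). These 3 passed the FDR of 0.1 when F3 thia replicate 2 was left out, as did 6.82% of all genes. *Aldh1a2* had an adjusted p of 0.0683 there by edgeR. DESeq2 and the edgeR fit of all 12 libraries called these 3 genes too, together with *Crabp1* and *Crabp2*. The 2 fits called 14.9% and 9.86% of the genes tested in F3. Without the filter, edgeR called *Aldh1a2* but no other gene of the list, and 1.85% of all genes in F3.

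Of 14 tested meiotic entry genes, 5 were lower and 1 higher in F1 thia at an unadjusted p under 0.05, against 8.76% of all genes and 4.13% lower. Of the 15 germ cell markers 7 were lower at that threshold, so the lower levels were not particular to this list. Its leading genes encode axis and synapsis proteins of meiotic chromosomes. *Sycp3* was at 20.7 to 27.9 CPM in F1 control and 11.9 to 16.7 in F1 thia (log2 fold change -0.69), and *Sycp2* at 5.51 to 8.67 and 2.21 to 5.18 CPM (-0.94). *Sycp1* had a log2 fold change of -0.50 with overlapping groups. DESeq2 and edgeR without the filter called *Sycp2* and *Sycp3*, when they called 1.01% and 0.78% of the genes tested in F1. In F3 the list had 0 genes at an unadjusted p under 0.05 and a median of -0.02.

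Of the Nodal and activin list, 1 of 17 tested genes had an unadjusted p under 0.05 in F1, against 8.76% of all genes. It was the Nodal co-receptor *Tdgf1*, at 0.12 to 0.22 CPM in F1 control and 0.37 to 0.60 in F1 thia (log2 fold change 1.69, edgeR, adjusted p = 0.446, and 0.123 without the filter). At 27.4 to 64.2 counts per CPM in the F1 libraries, these levels rest on few counts, so counting error was large. In F3, 4 of 16 were higher and 1 lower, against 21.1% of all genes. *Inhba*, the activin A subunit, was at 23.2 to 28.7 CPM in F3 control and at 52.4 to 63.0 in F3 thia, a log2 fold change of 1.04 ± 0.12 (SE, edgeR, adjusted p = 0.101). The proprotein convertases *Pcsk6* and *Furin*, enzymes able to cleave the NODAL precursor, were at 39.7 to 49.1 and 29.1 to 41.0 CPM in F3 control and at 75.5 to 111 and 52.9 to 76.5 CPM in F3 thia. Their log2 fold changes were 1.05 and 0.74 with adjusted p of 0.101 and 0.110 by edgeR. Without F3 thia replicate 2, 4 genes of the list passed the FDR of 0.1, namely these 3 and *Inhbb*, as did 6.82% of all genes. DESeq2 called the same 4, and edgeR called *Inhba*, *Pcsk6* and *Furin* without the filter and in the fit of all 12 libraries. Over all genes tested, the shares called were 14.9% with DESeq2, 1.85% without the filter and 9.86% in the fit of all 12 libraries. Leydig cell and endothelial markers were higher in the same libraries. The 8 Leydig cell markers had a median log2 fold change of 0.92 in F3, with 4 at an unadjusted p under 0.05. All 7 endothelial markers were above 0, with 6 at that threshold and sums of 158 to 179 CPM in F3 control and 243 to 293 in F3 thia. Their part in these differences was not tested.

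The last lists held genes of KIT and fibroblast growth factor signalling. Of 12 genes of the Kit pathway, 1 was lower in F1 at an unadjusted p under 0.05, *Cbl* (-0.25), and 2 were higher in F3, *Sos1* (0.19) and *Ptpn11* (0.16), against 8.76% and 21.1% of all genes. Of 10 fibroblast growth factor genes, 0 passed that threshold in F1 and 2 in F3, the receptors *Fgfr1* (0.28) and *Fgfr4* (0.61), both higher in F3 thia without overlap. These shares were not above the 21.1% of all genes in F3. DESeq2 called both receptors, with adjusted p of 0.0443 and 0.0334, and the edgeR fit of all 12 libraries called *Fgfr1*. Over all genes tested in F3, DESeq2 called 14.9% and that edgeR fit 9.86%. The ligand *Fgf9*, which promotes male fate of germ cells, was at 8.31 to 9.09 CPM in F1 control and 6.95 to 8.35 in F1 thia.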

How the data were processed

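Strand-specific RNA-seq libraries of embryonic testis, read as pairs, were mapped by the authors to mm10 with HISAT2 2.1.0 after demultiplexing with bcl2fastq 2.20.0.422 and counted per gene with featureCounts on refGene. The deposited values are raw counts per gene symbol, with 0 rows that name no gene. Whether pairs or single reads were counted, and whether counting used strand, is not given in the sources used here. Without strand, reads of *Nanos2* cannot be told from its antisense transcript *Gm45058*, nor those of *Dnd1* from the overlapping *Wdr55*.

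Groups came from the sample labels, and n counts pools. The litters behind each pool are not given in the sources used here, so a p measures the spread between these pools. Counts were filtered with filterByExpr at a minimum count of 10, scaled by TMM and tested across all genes with the quasi-likelihood test of edgeR 4.0.16 in R 4.3.3 (limma 3.58.1), with p adjusted after Benjamini and Hochberg, at thresholds of 0.15 for F1 and 0.1 for the rest. The standard error was derived from that test. Log2 CPM used a prior count of 2. Exact two-sided permutation tests compared single values. Levels per kilobase used the longest GENCODE M21 transcript with a RefSeq identifier. The pipeline was tested on simulated data. Python 3.11.15 was used for tables and plots.

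The genes and lists were chosen with earlier results of these data known, so no p adjusted over a list alone is given. Named are the 10 genes, up to 3 genes per list with the smallest unadjusted p in F1 and in F3, and the 2 genes most alike to each of the 10 over the 12 libraries. *Inhbb*, *Tob1* and *Crabp2* were named after their values were seen. An item that this rule names is not reported here. Of the meiotic entry list, *Meiosin* is not a row of the tables. Alternatives were the Wald test of DESeq2 1.42.0, its size factors, no filter, all 12 libraries in 1 fit, a replicate block, a prior count of 0.5 and the removal of every library once. The same alternatives for the lists were added after seeing the data.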

Additional observations from a re-analysis of the deposited data

Results flagged for a closer look

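For 4 pathway genes the control and *thia* libraries did not overlap in F1 and did not overlap in F3, with opposite directions. The 4 were found among the 10 regulators and the genes named from the lists. The list genes had been named for a small unadjusted p in F1 or F3, so groups without overlap were likely among them. Over all genes, 15.1% did not overlap in F1 and 27.3% in F3, in either direction. The share of all genes with opposite directions was not counted, so the 4 have no baseline to be set against. *Cbl*, a ubiquitin ligase that acts on KIT, had log2 fold changes of -0.25 in F1 and 0.17 in F3. Its difference was 0.43 ± 0.12 (SE, edgeR, adjusted p = 0.248). *Crabp1*, a retinoic acid binding protein, had 0.35 in F1 and -0.52 in F3, a difference of -0.85 ± 0.21 (adjusted p = 0.248 with edgeR). *Fgfr2* had -0.10 in F1 and 0.41 in F3, where the highest control pool was at 44.7 CPM and the lowest *thia* pool at 45.1. *Pik3ca* had -0.16 in F1 and 0.053 in F3, the latter with an unadjusted p of 0.49 by edgeR. Its highest F3 control pool was at 65.6 CPM and its lowest F3 thia pool at 65.9. The adjusted p for the difference was 0.323 for *Fgfr2* and 0.356 for *Pik3ca* by edgeR. The differences were tested in the fit of all 12 libraries and did not pass the FDR of 0.1. None of the 10 regulators showed this pattern.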

How the results depend on the processing

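Of 540 recomputed log2 fold changes of the 10 genes, 506 kept their direction and their side of the threshold, 9 passed the threshold where the reported value did not, 0 lost it and 25 changed sign. The number of genes past the FDR in F1 was 2, and it was 193 with DESeq2, 243 without the filter, 0 with all 12 libraries in 1 fit and 0 to 20 with 1 library left out (20 without F1 control replicate 1). Of the 10 regulators 0 passed in F1, 2 did with DESeq2 and 3 without the filter. In F3 the number of genes was 0, against 2262 with DESeq2, 569 without the filter, 1936 with all 12 libraries in 1 fit and 0 to 1294 with 1 library left out (1294 without F3 thia replicate 2), and of the 10 regulators 1 passed with DESeq2 and 0 to 1 with 1 library left out. The difference between generations had 1 gene, 638 with DESeq2 and 0 to 4 with 1 library left out. Between the controls 8300 genes passed, 6243 to 8704 with 1 library left out. The number of regulators without overlap relative to the germ cell markers was 3 in F1 and 2 in F3 (*Nanos3* and *Cyp26b1*). Over all genes the shares on that scale were 16.8% and 7.3%. With 1 library left out the numbers were 3 to 5 and 2 to 5. A group with 1 pool fewer can lose overlap but not gain it, so these numbers could only stay or rise. The cause of the other shifts was not tested.

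With 1 library left out, signs turned for values near 0 or with wide errors, given here as ranges of the log2 fold change. In F1 they were -0.20 to 0.094 for *Cyp26b1*, -0.54 to 0.45 for *Stra8* and -0.016 to 0.061 for *Kit*. In F3 they were -0.21 to 0.075 for *Dazl*, -0.050 to 1.17 for *Stra8*, -0.45 to 0.35 for *Nodal*, -0.25 to 0.48 for *Lefty1* and -0.23 to 0.39 for *Lefty2*. For the difference between generations they were -0.15 to 0.49 for *Nanos3*, -0.35 to 0.088 for *Dnd1* and -0.0024 to 0.72 for *Lefty1*, and between controls -0.49 to 0.49 for *Stra8* and -0.17 to 0.12 for *Lefty2*. The sign of *Lefty2* between controls, reported at -0.0041, also turned with DESeq2 (0.0020), with its size factors (0.0074) and with the replicate block (0.013). The log2 fold changes of *Nanos2* and *Nanos3* stayed under 0 in F1 and F3 in every alternative run, while relative to the germ cell markers *Nanos2* in F3 reached 0.015 with 1 library left out.

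The replicate block left 0 genes for the difference between generations, and 7 in place of 6 regulators passed between the controls, where *Nanos3* was at -0.62 (adjusted p = 0.0969 with edgeR). Replicate numbers did not pair control with *thia* libraries, since deviations of same-numbered libraries correlated at -0.032, -0.034 and 0.020 in F1 and at 0.228, -0.421 and -0.270 in F3, so the block says nothing on the size of an effect. Low counts widen the errors of *Nodal* and *Nanos2* in F3.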
